A study of Mus musculus with 12 samples.

Results

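The 9 genes described here are the peroxisome proliferator-activated receptors Ppara, Ppard and Pparg, their dimer partner Rxra, the coactivator Ppargc1a, and 4 genes that fasting switches on in the liver, Cpt1a, Angptl4, Pdk4 and Fgf21. All probe sets that the platform table annotates to 1 of these symbols alone were taken, 21 of the 45101 probe sets and 9 of the 18194 genes on the arrays. The brightest probe set of a gene is the one with the highest mean log2 signal over all 12 arrays. The arrays measured liver RNA of C57BL/6J mice aged 30 weeks, with 3 arrays in each of 4 groups. LDC mice, male and female, had drunk water with 100 nM cadmium chloride (low-dose cadmium, LDC) for life, and their mothers had drunk it from 1 week before mating. Control mice, male and female, received plain water and the same standard diet. The sources used here do not give litters, cages or the hours since the last meal before the livers were taken, and the p-values below measure the spread between the arrays of a group. Arrays are named by group and by the replicate number of the labels, for example control female 1.

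PPAR alpha, encoded by Ppara, is a nuclear receptor that binds fatty acids, pairs with RXR alpha and, during fasting, switches on the genes that carry fatty acids into mitochondria and peroxisomes and burn them there. PPAR delta and PPAR gamma are related receptors, the first active in many tissues and the second best known as the master regulator of fat cells. Cpt1a admits fatty acids to the mitochondrion, Pdk4 blocks the use of glucose for oxidation, Angptl4 is a secreted inhibitor of lipoprotein lipase, and Fgf21 is a hormone that the fasted liver releases.

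PPAR and RXR dimers bind copies of the hexamer AGGTCA spaced by a single base, written AGGTCANAGGTCA. Promoter windows from 250 bases before to 50 after a transcription start (RefSeq, GRCm38.p6) were on hand for 8 of the 9 genes, 11 windows in all, and not for Angptl4. The spaced repeat was found in 0 of these 11 windows on either strand, and in 0.0396% of all 32851 promoter windows of that length. The single hexamer, on either strand, was found in 4 of the 11, in Cpt1a, in the second window of Rxra and in the first and second windows of Pparg, against 16.3% of all windows. Such a match is a description of the letters only. The windows of Ppara and Cpt1a are shown because these genes differed between the sexes in both exposures, and that of Rxra because it holds the hexamer in both orientations. All 3 lie on the plus strand (chr15:85735526-85735825 for Ppara, chr19:3323051-3323350 for Cpt1a and chr2:27709042-27709341 for Rxra), and capitals mark AGGTCA or its reverse complement TGACCT.
Ppara: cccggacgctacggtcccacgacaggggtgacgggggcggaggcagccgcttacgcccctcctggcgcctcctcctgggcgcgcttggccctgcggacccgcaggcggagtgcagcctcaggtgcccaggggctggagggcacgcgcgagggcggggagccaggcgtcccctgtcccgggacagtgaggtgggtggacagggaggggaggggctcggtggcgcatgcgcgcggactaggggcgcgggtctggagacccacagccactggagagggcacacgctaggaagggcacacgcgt
Cpt1a: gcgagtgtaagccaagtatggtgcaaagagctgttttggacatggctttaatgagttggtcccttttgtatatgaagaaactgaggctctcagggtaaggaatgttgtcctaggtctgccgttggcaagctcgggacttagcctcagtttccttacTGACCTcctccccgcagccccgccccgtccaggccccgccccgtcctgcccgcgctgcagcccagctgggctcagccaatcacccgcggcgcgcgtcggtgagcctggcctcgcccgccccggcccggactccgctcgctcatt
Rxra: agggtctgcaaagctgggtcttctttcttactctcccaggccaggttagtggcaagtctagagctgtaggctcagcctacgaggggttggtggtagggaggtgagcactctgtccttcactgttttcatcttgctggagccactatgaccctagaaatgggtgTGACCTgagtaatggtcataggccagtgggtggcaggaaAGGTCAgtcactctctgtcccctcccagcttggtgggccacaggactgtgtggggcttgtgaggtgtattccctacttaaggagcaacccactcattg
The Ppara window held no hexamer, with a GC content of 74.7% and 30 CpG dinucleotides. In Cpt1a the hexamer began 94 bases before the start, on the minus strand. In Rxra it began 87 bases before the start on the minus strand and 48 bases before it on the plus strand.

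Signals were MAS 5.0 intensities on a linear scale without detection calls, with a trimmed mean of 500.0 on every array. Array medians ran from 95.1 to 110.3, and the mean correlation of an array with the others of its group ran from 0.918 to 0.937 across the tested probe sets. Xist separated the sexes as labelled, and the hepatocyte genes were bright on every array, with Alb between 44100 and 58100. The test covered the 27022 probe sets whose mean log2 signal reached the 40th percentile, which equals a signal of 48.6. Of the 21 probe sets of the 9 genes, 18 passed this filter, with at least 1 for each gene. The 3 left out were dim, namely Ppard 1425703_at (3.74 to 13.0, below 48.6 on all 12 arrays), Rxra 1430497_at (below it on 11 arrays) and Angptl4 1453410_at (5.90 to 201, below it on 7 arrays). Probe sets of 1 gene read the same transcripts and are not independent. In whole liver, fewer cells of a type and less RNA per cell cannot be told apart.

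The differences that passed the test lay between the sexes. Ppara, Cpt1a and Angptl4 were higher in males than in females in both LDC and control mice, and Ppargc1a was higher in LDC males than in LDC females. Among controls Rxra was higher in males on its brightest probe set only, and Ppard was lower in males. Pparg, Pdk4 and Fgf21 passed in no comparison. None of the 18 tested probe sets passed the test between LDC and control mice of either sex.

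**Figure D1:**
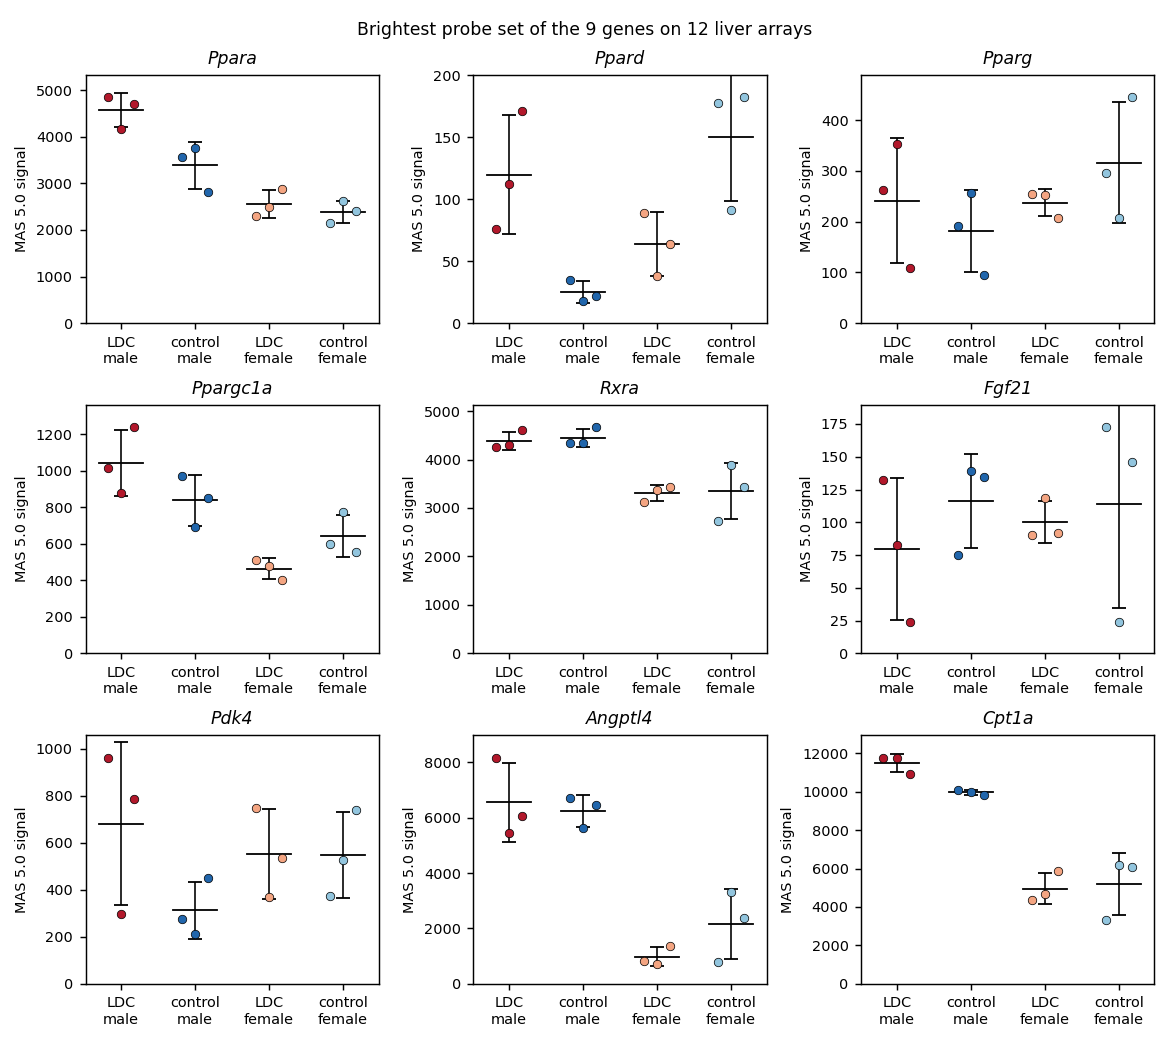
Signal of the brightest probe set of each of the 9 genes (y axis, MAS 5.0 signal, linear, each panel with its own scale) on each of the 12 arrays, by group; lines are means and bars are SD over 3 arrays. The males lie above the females without overlap for Angptl4, Cpt1a and Rxra, and Fgf21 and Pdk4 overlap in all comparisons.

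Ppara was highest in LDC males by all 3 of its probe sets. The brightest, 1457721_at, gave 4848, 4156 and 4707 in LDC males, against 3568, 3765 and 2824 in control males. Every LDC male lay above every control male, and the means were 4571 ± 366 and 3386 ± 496 (SD, n = 3 each). In females it gave 2298, 2499.9 and 2887 with LDC, against 2152, 2621 and 2411 in controls, and the groups overlapped. The probe set 1439675_at showed the same order more widely. It gave 4550.4, 4319 and 4763 in LDC males, against 2748, 3243 and 2523 in control males, and 1526, 2052 and 2008 in LDC females, against 1255, 1734 and 1595 in control females. The LDC and control males again did not overlap, while the LDC and control females did. The probe set 1449051_at gave 4230.4, 4098 and 4669 in LDC males and 2303, 3314 and 1918 in control males. In LDC females it gave 1033, 1834 and 1578, against 711, 1381 and 935 in control females, and its order of group means was also LDC males, control males, LDC females and control females.

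The Ppara difference with LDC in males was 0.44 to 0.82 on the log2 scale over the 3 probe sets and did not pass the adjusted threshold in the limma fit. The smallest adjusted p was that of 1439675_at, at 0.69 (standard error 0.15, 95% interval 0.37 to 1.00, adjusted p = 0.0783). The values for 1457721_at and 1449051_at were 0.44 (adjusted p = 0.229) and 0.82 (adjusted p = 0.253). The call for 1439675_at turned on the choice of arrays, with an adjusted p of 0.0292 when the sexes were fitted apart and of 0.0418 without control female 1, an array that is in neither male group. In females the 3 values were 0.10 (adjusted p = 0.88) for 1457721_at, 0.29 (adjusted p = 0.598) for 1439675_at and 0.57 (adjusted p = 0.521) for 1449051_at. The test of the difference between the sexes in the LDC effect did not pass for any of them, at 0.35 (adjusted p = 0.55) for the brightest and 0.40 (adjusted p = 0.536) for 1439675_at.

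Between the sexes the same 3 probe sets all passed. In LDC males against LDC females, Ppara was higher by 0.84 (standard error 0.13, adjusted p = 0.00106) in the limma fit for 1457721_at, by 1.30 (standard error 0.15, adjusted p = 8.3e-05) for 1439675_at and by 1.59 (standard error 0.25, adjusted p = 0.00123) for 1449051_at. In control males against control females the values were 0.49 (adjusted p = 0.0313), 0.90 (adjusted p = 0.00166) and 1.33 (adjusted p = 0.00467), in the same order of probe sets. On all 3 probe sets every male lay above every female of the same exposure. The control comparison of 1457721_at was the least secure of the 6, since its adjusted p reached 0.0944 without control male 1, 0.126 without control male 2, 0.114 without control female 1 and 0.0643 without control female 3, and 0.116 after median centring.

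**Figure D2:**
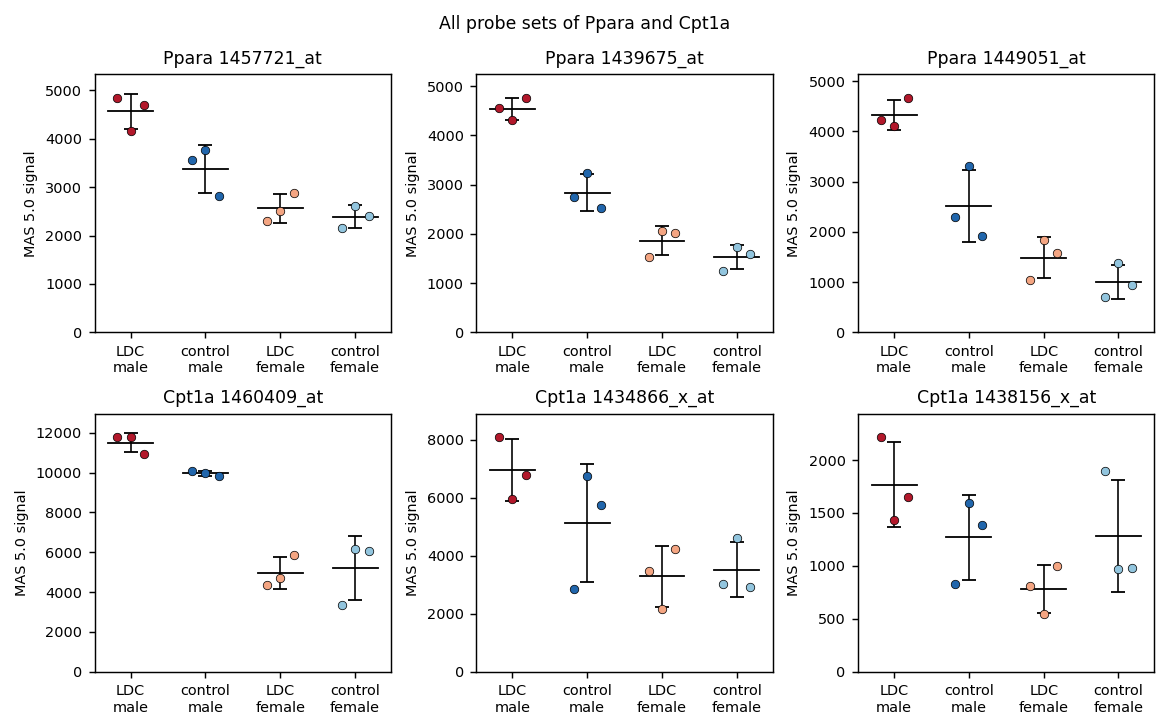
Signal of the 3 probe sets of Ppara (top row) and of Cpt1a (bottom row) on each array by group (y axes, MAS 5.0 signal, linear, own scale per panel; lines are means, bars SD, n = 3). All Ppara panels step down in the order LDC males, control males, LDC females and control females, while Cpt1a 1438156_x_at has control males and control females side by side.

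Ppard was dim, and its LDC arrays lay on opposite sides of the controls in males and females. Its tested probe set, 1439797_at, gave 75.9, 112 and 171 in LDC males, against 35.3, 17.9 and 22.3 in control males, all 3 of the control values below the filter signal of 48.6. In LDC females it gave 89.3, 37.8 and 64.3, against 178, 91.0 and 182 in control females. All LDC males lay above all control males, and all LDC females lay below all control females. The log2 fold change was 2.23 (standard error 0.58, adjusted p = 0.158) in males, and in females it was -1.26 (standard error 0.58, adjusted p = 0.55), neither past the threshold in the limma fit. The difference between the effects was 3.48 (standard error 0.83, adjusted p = 0.144), with a 95% interval of 1.72 to 5.25, and did not pass either. With 32 added to each signal, the male, female and difference values of Ppard were 1.37, -0.92 and 2.29, so the sizes depend on that setting. Control males were lower than control females in Ppard by the test, at -2.57 (standard error 0.58, adjusted p = 0.0149), or -1.64 with 32 added, and this call was lost without control female 1 (adjusted p = 0.069) and without control female 3 (adjusted p = 0.0616). LDC males and LDC females gave 0.92 (adjusted p = 0.441).

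Pparg overlapped in every comparison of exposure. Its probe set gave 262, 354 and 109 in LDC males and 192, 256 and 95.6 in control males. In LDC females it gave 254, 252 and 207, against 296, 208 and 445 in control females. The LDC values were 0.37 (adjusted p = 0.839) in males (95% interval -0.57 to 1.31) and -0.35 (adjusted p = 0.87) in females (-1.29 to 0.59), intervals that hold differences of more than 1 log2 unit. Without single arrays the male value of Pparg ran from -0.0353 (without control male 3) to 0.864 (without LDC male 3). Control males against control females gave -0.85 (adjusted p = 0.286).

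Rxra did not separate by exposure on its brightest probe set. This probe set, 1454773_at, gave 4253, 4306 and 4601 in LDC males, against 4334, 4334 and 4663 in control males, and 3115, 3378 and 3433 in LDC females, against 2735, 3891 and 3430.4 in control females. The LDC effect was -0.02 (standard error 0.12, adjusted p = 0.975) in males, and in females it was -0.01 (standard error 0.12, adjusted p = 0.993), with 95% intervals of -0.27 to 0.23 and -0.25 to 0.24, the narrowest of the 18 probe sets. The second probe set, 1425762_a_at, gave 867, 831 and 843 in LDC males and 618, 808 and 728 in control males without overlap, at 0.25 (adjusted p = 0.678). On 1454773_at all males lay above all females of the same exposure, with 0.42 (standard error 0.12, adjusted p = 0.0387) among controls and 0.41 (standard error 0.12, adjusted p = 0.0517) among LDC mice. The control call was lost without any 1 of the 6 male arrays, LDC female 2, control female 1 or control female 3 (adjusted p 0.0532 to 0.142), and the LDC comparison passed without control female 1 (0.0131) or control female 2 (0.0266), so these 2 values sit at the threshold. On 1425762_a_at the sex difference did not pass in the limma fit. It was 0.09 (adjusted p = 0.812) among controls, which overlapped, and 0.30 (adjusted p = 0.373) among LDC mice, which did not.

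Ppargc1a encodes PGC-1 alpha, the coactivator that works with PPAR alpha and with gluconeogenic factors in fasted liver. The brightest of its 5 probe sets, 1460336_at, gave 1015, 876 and 1237 in LDC males, against 970.3, 694 and 852 in control males. In LDC females it gave 514, 477 and 402, against 600.3, 772 and 556 in control females, so that all LDC females lay below all control females, while the males overlapped. The effect was 0.31 (standard error 0.19, adjusted p = 0.61) in males, and in females it was -0.46 (standard error 0.19, adjusted p = 0.478). The difference of the effects was 0.78 (adjusted p = 0.34). All 5 probe sets had a positive value in males (0.13 to 0.35) and a negative value in females (-0.59 to -0.09), and none passed in the limma fit. Among LDC mice, males were higher than females by 1.16 (standard error 0.19, adjusted p = 0.00139) on 1460336_at, a call kept without any single array (adjusted p at most 0.0113). On 1437751_at and 1456395_at this difference also passed, at 0.87 (adjusted p = 0.0414) and 0.88 (adjusted p = 0.0399), and each lost the call in 6 of the 12 fits that left out an array. For 1437751_at these were the fits without any of the 3 LDC males, LDC female 2, LDC female 3 or control female 3 (adjusted p 0.0513 to 0.161), and for 1456395_at those without any of the 6 LDC arrays (0.0681 to 0.167). The other 2 did not pass, with 1.20 (adjusted p = 0.0534) for 1434099_at, which passed without control female 1 (0.0396) or control female 3 (0.0197), and 0.83 (adjusted p = 0.106) for 1434100_x_at. Among controls the sex difference of the 5 probe sets ran from 0.22 to 0.44 and none passed, with 0.39 (adjusted p = 0.248) for 1460336_at.

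Cpt1a was higher in males in both exposures. The brightest probe set, 1460409_at, gave 11770.0, 11787 and 10940.2 in LDC males, against 10093, 9992 and 9852 in control males. It gave 4347, 4685 and 5852 in LDC females, against 3329.6, 6188 and 6076 in control females. All males lay above all females, and all LDC males above all control males, while the females overlapped. The male-over-female difference was 1.22 (standard error 0.18, adjusted p = 0.000876) in LDC mice and 1.00 (standard error 0.18, adjusted p = 0.0042) in controls by limma, and neither call was lost without any single array. The LDC effect was 0.20 (adjusted p = 0.77) in males, and in females it was -0.02 (adjusted p = 0.982). The 2 dimmer probe sets passed among LDC mice, at 1.12 (adjusted p = 0.0354) for 1434866_x_at and 1.20 (adjusted p = 0.0279) for 1438156_x_at, where the first call was lost without any LDC male or without LDC female 1 or 2 (0.0644 to 0.158) and the second without LDC male 1, LDC male 3, LDC female 1 or LDC female 2 (0.0663 to 0.128). Among controls they did not, at 0.48 (adjusted p = 0.381) and 0.01 (adjusted p = 0.993). The suffix _x_at marks probe sets whose probes can match other transcripts, and on 1438156_x_at control female 1 was the highest control female (1895, 974 and 975 in control females 1, 2 and 3) where on 1460409_at it was the lowest.

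Angptl4 had the largest sex difference of the 18 probe sets in LDC mice. Its tested probe set gave 8176, 5430.5 and 6058 in LDC males, against 6715, 5611 and 6448 in control males. In LDC females it gave 819, 726 and 1379, against 784, 3303 and 2358 in control females. The lowest male value was 5430.5 and the highest female value 3303. Males were higher by 2.79 (standard error 0.39, adjusted p = 0.00044) in LDC mice and by 1.77 (standard error 0.39, adjusted p = 0.0116) in controls, and the control value became 1.16 (adjusted p = 0.0129) without control female 1. The LDC effect was 0.05 (adjusted p = 0.981) in males, and in females it was -0.97 (standard error 0.39, adjusted p = 0.478), where control female 1 lay with the LDC females and the other 2 controls lay above them. Without control female 1 the female effect was -1.58 with an adjusted p of 0.0151, and without control female 2 it was -0.54 (adjusted p = 0.616). The difference between the effects was 1.01 (adjusted p = 0.557), and became 1.62 (adjusted p = 0.0741) without control female 1 and 0.59 (adjusted p = 0.697) without control female 2.

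Pdk4 and Fgf21 did not pass in any comparison. Pdk4 gave 962, 296 and 785 in LDC males, against 276, 212 and 448 in control males, and LDC male 2 lay within the control range. In LDC females it gave 748, 369.8 and 537, against 372, 528 and 737 in control females. The Pdk4 effect of LDC was 1.03 (standard error 0.41, adjusted p = 0.407) in males, with a 95% interval of 0.15 to 1.92, and 0.01 (adjusted p = 0.996) in females. Fgf21 gave 132, 82.8 and 23.9 in LDC males, against 74.8, 139 and 135 in control males, and 90.1, 119 and 91.9 in LDC females, against 172, 23.8 and 146 in control females. Its lowest values, on LDC male 3 and control female 2, were below the filter signal. The Fgf21 effect was -0.81 (standard error 0.75, adjusted p = 0.776) in males (95% interval -2.41 to 0.79) and 0.24 (adjusted p = 0.957) in females (-1.36 to 1.84), the widest intervals of the 18 probe sets. They hold effects of more than 1 log2 unit. The male Fgf21 value ran from -1.33, with LDC male 1 left out, to -0.0997, with LDC male 3 left out. For Pdk4 it reached 1.55 when LDC male 2 was left out.

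Over the 18 probe sets, 0 passed with LDC in males, where 0.278% of all 27022 tested probe sets passed, and 0 in females, where 0.122% did (limma, adjusted p). At an unadjusted p under 0.05, 5 were higher and 0 lower in LDC males (10.2% of all probe sets, either direction), and 1 was higher and 5 lower in LDC females (9.01%). The methods' t-test gave 5 in males and 0 in females at that level, and 0 in either after adjustment. In males 6 of the 18 lay higher in LDC mice without overlap and 0 lower, where 16.5% of all probe sets did not overlap in either direction. These 6 were the 3 of Ppara and the probe sets of Ppard 1439797_at, Rxra 1425762_a_at and Cpt1a 1460409_at. In females 0 lay higher and 3 lower without overlap (13.9% of all), Ppard 1439797_at and Ppargc1a 1460336_at and 1437751_at. The median effect of the 18 was 0.33 in males, against 0.00 over all tested probe sets, and -0.10 in females, against 0.01. By the brightest probe set of each of the 9 genes the median was 0.31 in males and -0.02 in females. The difference of the effects passed for 0 of the 18 (0.178% of all), with a smallest adjusted p of 0.144 for Ppard, and 3 of the 18 at an unadjusted p under 0.05 (10.3% of all). The mean effect over both sexes passed for 0 (0.0444% of all) and reached 3 at the unadjusted level (9.28%).

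**Figure D3:**
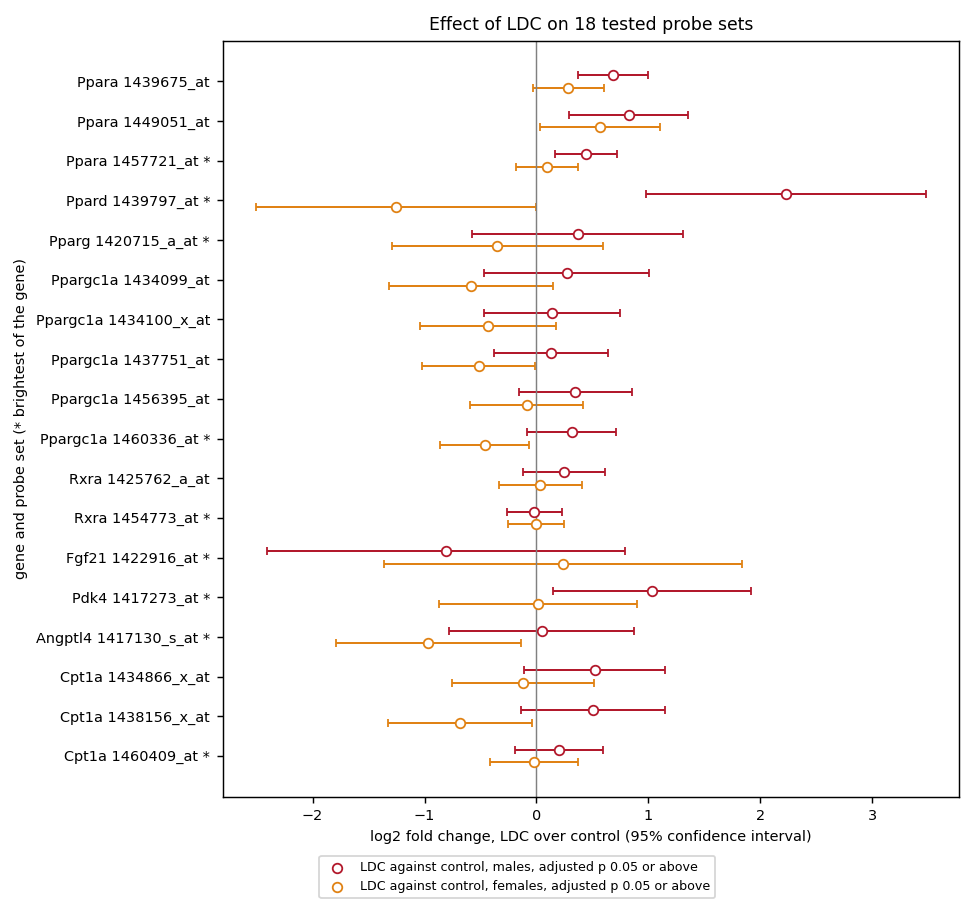
Log2 fold change of LDC over control (x axis, points with 95% confidence intervals) for each of the 18 tested probe sets (y axis), males in red above females in orange. No point is filled because no adjusted p was under 0.05, and most male values lie right of 0.

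Between the sexes the picture differed. Of the 18, 10 were higher and 0 lower in LDC males than in LDC females, 55.6% of them, where 6.29% of all tested probe sets passed in either direction. They belonged to 4 genes, Ppara, Ppargc1a, Angptl4 and Cpt1a. In control males against control females 6 were higher and 1 lower, 38.9%, where 7.73% of all passed, and they belonged to Ppara, Rxra, Angptl4 and Cpt1a on the higher side and Ppard on the lower. Without overlap lay 14 of 18 among LDC mice, all higher in males (26.9% of all probe sets in either direction), and 6 higher with 1 lower among controls (24.5%). The median sex difference was 0.90 in LDC mice, against -0.02 over all tested probe sets, and 0.40 in controls, against -0.02. Since the probe sets of 1 gene are not independent, the same counts by brightest probe set were 4 of 9 genes in LDC mice and 5 of 9 in controls. The test of whether the sex difference itself differed with exposure is the difference of the LDC effects above, which no probe set passed.

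**Figure D4:**
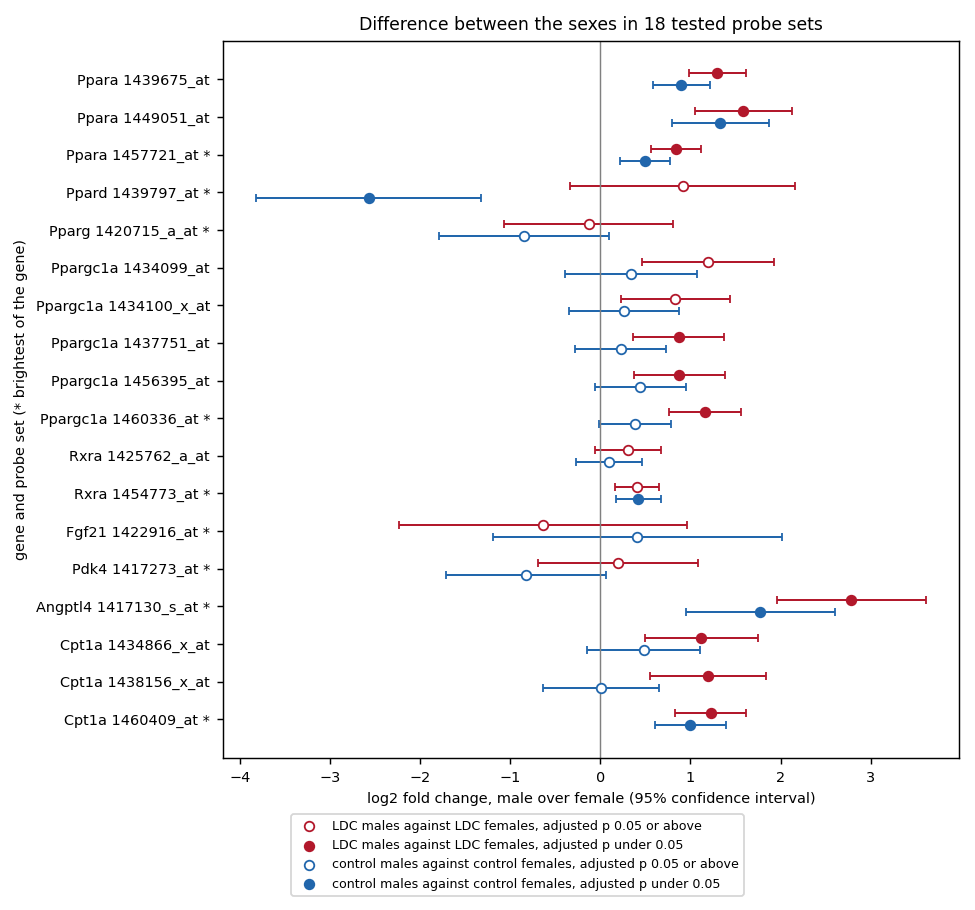
Log2 fold change of males over females (x axis, points with 95% confidence intervals) for each of the 18 tested probe sets (y axis), LDC mice in red above controls in blue, filled where the adjusted p was under 0.05. Angptl4, Cpt1a 1460409_at and the 3 probe sets of Ppara are filled in both exposures, and the only filled point left of 0 is Ppard in controls.

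Several of these values leaned on control female 1. Among the 3 control females it was the lowest for all 3 probe sets of Ppara, for Angptl4, for the brightest probe sets of Cpt1a and Rxra, and for 8 of the 18 probe sets in all, from 6 genes. Control females 2 and 3 were the lowest for 4 and 6. In the other groups the most often lowest array was LDC male 2, for 12 of the 18, then control male 2, for 8, and LDC female 1, for 7.

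The other genes of the pathway were read from lists, each gene by its brightest probe set. The counts of these lists and of the markers below stand beside these shares of all tested probe sets, in either direction. With LDC 0.278% passed in males and 0.122% in females, and 10.2% and 9.01% had an unadjusted p under 0.05. Between the sexes 6.29% passed in LDC mice and 7.73% in controls. Among 34 other targets of PPAR alpha, 2 passed with LDC in males, the peroxisomal acyl-CoA thioesterases Acot3 (3.31, adjusted p = 0.00269) and Acot4 (1.69, adjusted p = 0.00513), both higher, and 32 did not. At an unadjusted p under 0.05, 5 of the 34 were higher and 1 lower in LDC males. In females 0 passed, with 5 higher and 0 lower at an unadjusted p under 0.05, the smallest adjusted p being 0.29 for Eci1 (0.41). For the mean effect over both sexes 0 passed, with 9 higher and 1 lower at the unadjusted level (9.28% of all). The list medians were 0.06 in males and 0.16 in females, against 0.00 and 0.01 over all tested probe sets. Acot1, Acot3 and Acot4 are close paralogs, and cross-matching of their probes was not tested. In control males against control females 11 targets were higher and 3 lower, with a list median of 0.38, against -0.02 over all tested. Higher were Pex11a, which divides peroxisomes (1.12, adjusted p = 2.89e-05), Slc22a5, the carnitine transporter (1.03, adjusted p = 0.0149), Creb3l3, a liver transcription factor of the fasting response (0.99, adjusted p = 0.0104), and Mgll, which cleaves monoglycerides (0.79, adjusted p = 0.00513), together with Acot1, Cpt2, Slc25a20, Hsd17b4, Abcd3, Eci1 and Acaa1b (0.38 to 1.66). Lower were Abcd2, a peroxisomal transporter of very long-chain fatty acids (-7.07, adjusted p = 0.000201), Acot3 (-3.59) and Acot4 (-1.53). In LDC males against LDC females 6 were higher, Pex11a (1.24), Slc22a5 (1.45), Acot1 (2.29), Creb3l3 (0.83), Eci2 (0.52) and Acaa1a (0.56), and Abcd2 was lower (-3.68).

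Of 8 tested targets of PPAR gamma, 0 passed with LDC in either sex, with 2 higher in males and 3 higher in females at an unadjusted p under 0.05, and the list median was 0.45 in males and 0.35 in females. The fatty acid carrier Cd36 had 0.80 (adjusted p = 0.102) and the lipase inhibitor G0s2 1.47 (adjusted p = 0.141) in LDC males. In control males against control females 4 were higher and 1 lower. The lipid droplet genes Fitm1 (2.25), Fitm2 (1.08), Cidec (3.54) and Plin4 (2.22) were higher and Cd36 was lower (-0.88, adjusted p = 0.00741). Among LDC mice Fitm1 (2.07), Fitm2 (1.17) and Plin4 (2.35) were higher in males. The list median of the sex difference was 1.23 in LDC mice and 1.06 in controls.

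Of 17 receptor partners and coregulators 0 passed with LDC in either sex, with 2 higher and 2 lower in males and 1 higher and 1 lower in females at an unadjusted p under 0.05. Lpin1, a phosphatidate phosphatase that also acts with PGC-1 alpha, was higher in males by 3.01 in LDC mice (adjusted p = 4.6e-06) and by 3.04 in controls (2.72e-06). Ppargc1b, the relative of Ppargc1a, was higher by 1.35 (adjusted p = 0.00307) and 1.47 (0.0016), and Rxrg was lower in control males by the test (-2.23, adjusted p = 0.025). Of 10 fasting and gluconeogenic genes 0 passed with LDC, with 3 higher in males and 1 lower in females at the unadjusted level. In LDC males against LDC females 4 were higher, the transcription factor Foxo1 (1.15, adjusted p = 3.76e-05), the gluconeogenic enzymes Pck1 (1.08, adjusted p = 0.00214) and Pcx (0.41, adjusted p = 0.0282), and Ppp1r3g, a glycogen-targeting subunit (3.20, adjusted p = 0.00948). Among controls Foxo1 was higher in males (0.41, adjusted p = 0.0453), and all 10 genes had a positive value. Of these, 4 had an unadjusted p under 0.05, a level for which no share over all probe sets is given here between the sexes. The difference of the LDC effects, which tests whether the sex difference changed with exposure, passed for 0 of the 10, with 1 at the unadjusted level, Foxo1 (0.74, adjusted p = 0.119). Of 11 genes of the fed state 0 passed with LDC, with 2 lower in males and 1 higher in females at the unadjusted level. The lipogenic regulator Srebf1 and its target Fasn were lower in males, at -2.17 (adjusted p = 0.00166) and -2.04 (0.00122) in LDC mice and at -1.53 (0.0169) and -1.36 (0.0184) in controls.

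Relatives and binding partners of the 9 genes, 21 tested, gave 0 calls with LDC in either sex (2 higher and 2 lower in males, 0 higher and 1 lower in females, unadjusted). Among receptors for fibroblast growth factors, Fgfr1 was higher (1.37, adjusted p = 0.00862) and Fgfr3 (-0.83, adjusted p = 0.00274) and Fgfr4 (-0.65, adjusted p = 0.0367) were lower in LDC males than in LDC females, with Fgf1 higher (0.59, adjusted p = 0.0248). In control males against control females 4 were higher, the pyruvate dehydrogenase phosphatase genes Pdp2 (0.72, adjusted p = 0.0263) and Pdpr (0.44, adjusted p = 0.0456) and the carnitine cycle genes Slc25a20 (0.63, adjusted p = 0.0296) and Cpt2 (0.48, adjusted p = 0.0462), and 1 was lower, Fgfr4 (-0.89, adjusted p = 0.00545). Of 9 genes of the amino acid stress response, which can also raise Fgf21, 0 passed with LDC (1 higher and 1 lower in each sex, unadjusted), while between the sexes 1 was higher and 2 lower in LDC males, and 2 were higher and 2 lower in control males. Asns, asparagine synthetase, was higher in males by 3.61 in LDC mice (adjusted p = 0.000404) and by 1.72 in controls (0.0467), and Chac1 was higher in control males (adjusted p = 0.00456). The lipoprotein receptor Vldlr was lower in males, at -2.79 (adjusted p = 0.000511) in LDC mice and -2.75 (0.000623) in controls, as was the transcription factor Atf4, at -0.73 (0.00167) and -0.83 (0.00071).

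**Figure D5:**
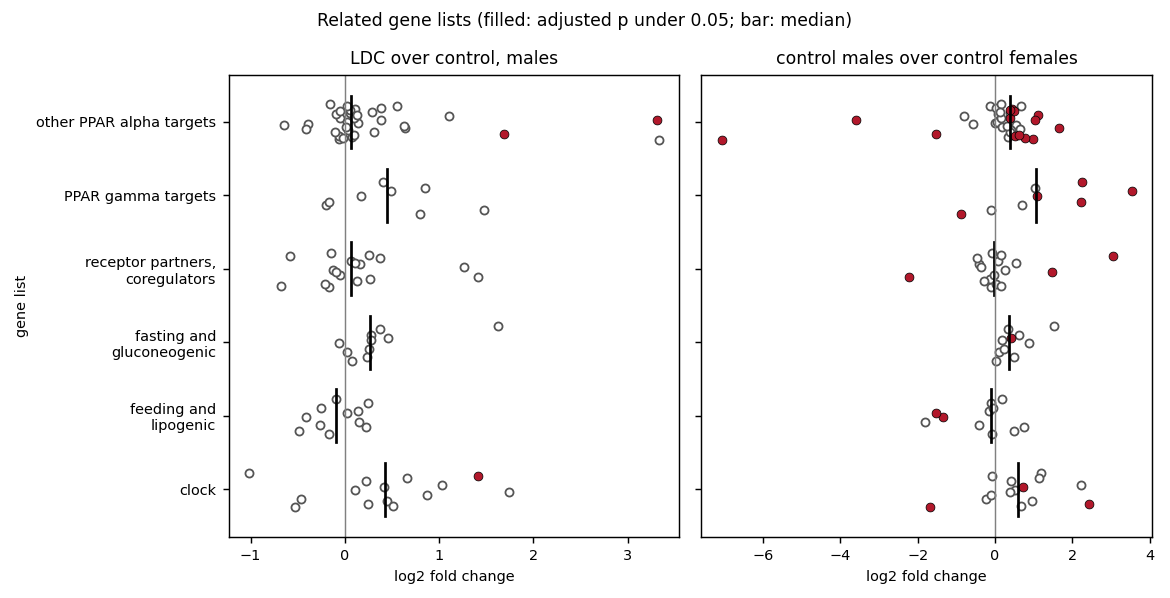
Log2 fold change (x axes) of each tested gene of 6 related lists (y axis) for LDC over control in males (left) and for control males over control females (right); filled points have an adjusted p under 0.05 and bars are medians. On the left Acot3, Acot4 and the clock gene Cry1 are filled; on the right 14 of 34 other PPAR alpha targets and 5 of 8 PPAR gamma targets are filled.

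Some measures other than these pathways differed along the same lines. The summed signal of 7 Kupffer cell and macrophage markers was 16160 to 22650 in LDC males, against 10630 to 11320 in control males. It was 5685 to 23690 in LDC females, against 12860 to 31880 in control females. All 7 had a positive LDC effect in males and a negative one in females, 0 of them past the threshold (2 higher in males and 3 lower in females at an unadjusted p under 0.05). Summed lymphocyte markers, 5 probe sets of which 3 passed the filter, were 1231 to 1556 in LDC males, against 874.2 to 1038 in control males. Most of this sum was Ptprc, with means of 1191 in LDC males and 715.4 in control males. The others differed little between these groups, Ms4a1 at 121.4 and 122.5, Cd3d at 60.68 and 53.41, Cd3e at 28.25 and 26.78, and Cd79a at 34.45 and 40.35. The 3′/5′ ratio of the Gapdh control probe sets, a sign of RNA integrity, was 0.684 to 0.763 in LDC males, against 0.766 to 0.836 in control males, while the same ratio of actin overlapped, at 1.85 to 1.96 in LDC males and 1.76 to 1.98 in control males. These sums and the Gapdh ratio separate the male groups as Ppara and Ppard do, and their part in those results was not tested. The summed signal of 6 hepatocyte markers covered 242700 to 252600 in LDC males and 241400 to 281200 in control males, which overlap. The summed pancreas markers, 2 probe sets of which 1 passed the filter, were 977.1 to 1311 in LDC males, against 1963 to 2479 in control males. This sum was nearly all Cela1, with means of 1106 in LDC males and 2205 in control males. Cpa1 was below the filter, with means of 22.82 and 5.14. In these sums control males lay above all control females for pancreas markers (698.4 to 1343 in control females). They lay below all control females for Kupffer cell and macrophage markers and for lymphocyte markers (1247 to 3280 in control females for lymphocyte markers). Between the sexes, 6 stellate cell markers summed to 5780 to 6512 in LDC males, against 8048 to 9124 in LDC females, and to 5136 to 7087 in control males, against 7578 to 11130 in control females. The members of this list did not all go the same way. Among LDC mice 4 were lower and 2 higher in males, and 0 passed. Among controls 5 were lower and 1 higher in males, and 1 passed as lower. The red blood cell list, in which 1 of 3 probe sets passed the filter, summed to 1762 to 2674 in LDC males, against 423.7 to 643 in LDC females, and to 2652 to 3892 in control males, against 405.2 to 585.8 in control females. This sum was nearly all Alas2, with means of 1940 in LDC males, 486.2 in LDC females, 3009 in control males and 406.8 in control females. Below the filter, Hba-a1 had means of 32.25, 32.7, 37.82 and 35.84 in the same order of groups. Those of Slc4a1 were 93.5, 15.05, 40.39 and 58.32. The summed muscle markers, 5 probe sets of which 2 passed the filter, stood out on LDC male 3, at 1392. They were 165.2 and 337.2 on LDC males 1 and 2. The ranges were 206.2 to 381 in control males, 160.7 to 351.5 in LDC females and 154.4 to 331.8 in control females. The part of the muscle markers in the other values of LDC male 3 was not tested. The adipocyte genes Adipoq, Lep and Retn were below the filter. The 4 adipocyte probe sets summed to 993.6 to 1431 in LDC males, against 714.2 to 1254 in LDC females, which overlap, and to 1223 to 1610 in control males, against 635.1 to 1177 in control females, which do not. Fabp4, the tested marker of that list, had a sex difference of 0.69 in controls (adjusted p = 0.0795). The part of these markers in the sex differences, those of the lipid droplet genes included, was not tested.

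Clock genes, which follow the hour of sampling and of feeding, were measured alongside. Of 14 tested, Cry1 was higher in LDC males than in control males (1.41, adjusted p = 0.0448) and 13 did not pass. At an unadjusted p under 0.05, 4 were higher and 1 lower in LDC males (10.2% of all tested probe sets in males, 9.01% in females). The list median was 0.43 in males and 0.47 in females, against 0.00 and 0.01 over all tested probe sets. For the mean effect over both sexes 0 passed, with 8 higher and 1 lower at the unadjusted level (9.28% of all). In females 0 passed, with 6 higher and 0 lower at an unadjusted p under 0.05, led by Nr1d1 (2.03, adjusted p = 0.214) and Dbp (1.79, adjusted p = 0.356). Between the sexes 2 clock genes passed as higher and 1 as lower in males, in LDC mice and again in controls. The list median was 0.56 in LDC mice and 0.60 in controls, against -0.02 over all tested probe sets in each. Nr1d2 was higher and Arntl lower in males, at 0.82 and -1.53 in LDC mice and at 0.71 and -1.67 in controls. No source used here gives the hour at which each mouse was sampled, and the part of the clock genes in the differences above was not tested.

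The genes most like 5 of the members over the 12 arrays were found by Pearson's r on the log2 signal, as a description in which the group differences take part. For Ppara they were Bnip3 (0.965), Cdk18 (0.958) and Hsd17b10 (0.958), and with group means removed these correlations were 0.720, 0.725 and 0.792. For Cpt1a they were Tmem120a (0.984), Gpcpd1 (0.977) and Pex11a (0.971), at 0.935, 0.880 and 0.814 with group means removed, and for Angptl4 they were Tmem19 (0.970), Klhl24 (0.965) and Nlrp12 (0.963), at 0.835, 0.796 and 0.876. Pdk4 was most like Abtb2 (0.835), Slc38a10 (0.834) and Fbxw17 (0.833), and Fgf21 most like Pofut2 (0.909), Ms4a6b (0.909) and 4930570E01Rik (0.895), all at a low signal. With 27022 probe sets to choose from and 12 arrays, high values of r arise easily.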

How the data were processed

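Liver RNA was measured on 12 arrays, 3 per group. The authors deposited linear signal intensities, scaled per array by MAS 5.0 (GeneSpring 12.6.1), without detection calls. The number of arrays limits the precision. Symbols came from the platform annotation of 2016, updated by gene ID. Log2 intensities of probe sets at or above the 40th percentile of mean signal were fitted with limma 3.58.1 in R 4.3.3 (1 mean per group, eBayes with an intensity trend, Benjamini-Hochberg adjustment over 27022 probe sets, calls at an adjusted p under 0.05). The fit was tested on simulated data. Of the related lists, genes with an adjusted p under 0.05 and up to 3 with the smallest p per comparison could be named. The members and lists were chosen with earlier results of these data known. The columns were mapped to groups by their labels, and 1 probe set naming Ppard together with a second gene was left out. Alternatives were other filters (none, 20th and 60th percentile), quantile normalization, median centring, log2(signal + 32), each sex fitted alone and 1 probe set per gene. Further alternatives were eBayes without trend, arrayWeights, Student's t-test, a replicate block and leaving out each array. Plots used matplotlib 3.10.9 and Python 3.11.15.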

Additional observations from a re-analysis of the deposited data

Results flagged for a closer look

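For Ppard 1439797_at, a dim probe set with all control males below the filter signal, all LDC males lay above all control males and all LDC females below all control females. The male effect minus the female effect was 3.48 on the log2 scale, and its test in the limma fit did not pass (adjusted p = 0.144). Among the other targets of PPAR alpha, the male effect minus the female effect passed the same test for Acot3 at 3.45 (adjusted p = 0.0167) and for Acot4 at 1.68 (adjusted p = 0.0441).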

How the results depend on the processing

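The count of LDC calls among the 18 probe sets was 0 in males under all alternatives except 1 with each sex fitted alone and 1 without control female 1, in both cases Ppara 1439675_at, and 0 in females except 1 without control female 1, Angptl4 (leave-one-out range 0 to 1 in each sex). The 7 calls between control males and control females became 4 with eBayes without trend and 0 with Student's t-test after adjustment. Without single arrays they became 4 to 7, lowest without control female 1 or 3. Without the trend, the Angptl4 control value had an adjusted p of 0.0697. The 10 calls between LDC males and LDC females became 6 with eBayes without trend and 0 with Student's t-test after adjustment. With 1 probe set per gene, where 9 were tested, they became 5. Without single arrays they became 6 to 12, lowest without LDC male 1, LDC male 3 or LDC female 2. Small effects changed sign. With arrayWeights the female Pdk4 effect was -0.0713 and the Rxra difference of effects 0.0228. Without single arrays the LDC effect in males ran from -0.0353 to 0.864 for Pparg, -0.0533 to 0.0166 for Rxra and -0.122 to 0.174 for Angptl4, and in females from -0.144 to 0.11 for Rxra, -0.674 to 0.753 for Fgf21, -0.238 to 0.27 for Pdk4 and -0.317 to 0.13 for Cpt1a. The Rxra difference of effects ran from -0.129 to 0.126. The male-over-female value ran from -0.503 to 0.924 for Fgf21 in controls and, in LDC mice, from -0.487 to 0.364 for Pparg, -1.16 to 0.0712 for Fgf21 and -0.136 to 0.715 for Pdk4. The causes were not tested.

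Arrays with the same replicate number did not deviate together (r from -0.0278 to 0.0589 over pairs of groups), so the numbers were not taken to pair the mice. A replicate block gave 0 calls for LDC in males, 0 in females, 0 for their difference, 6 between controls and 8 between LDC mice, and the control sex difference of the brightest Ppara probe set had an adjusted p of 0.0502. No detection calls were on hand, so values of Ppard and Fgf21 near the floor could not be set apart from background. With 3 mice per group, the intervals of the LDC effects of Pparg and Fgf21 in both sexes hold values beyond 1 log2 unit.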
